A study of Mus musculus with 4 samples.

Results

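Rasgrf1 encodes a guanine nucleotide exchange factor that activates Ras and is an imprinted gene, read in the neonatal mouse brain from the paternal copy. Its control region, about 30 kb upstream, carries DNA methylation on the paternal copy, a mark set in the male germ line. On the unmethylated maternal copy of somatic cells this region binds CTCF, a zinc-finger protein that marks loop anchors and can block enhancers. CTCF binding was profiled here by sequencing of immunoprecipitated chromatin (ChIP-seq). The tissue was the unsorted testis of F1 mice from a B6 by CAST cross. The series held 2 samples of CTCF immunoprecipitation and 2 input samples, all from testes that were frozen and then fixed in paraformaldehyde while thawing, and the labels gave no age.

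The values came from 1 merged list of 51871 CTCF peaks on the mm10 build. Members were the peaks whose summit lay inside Rasgrf1 or within 150 kb of either end, which gave 19 peaks. RefSeq places the gene on chromosome 9 from 89909508 to 90026979, transcribed towards higher coordinates, so that the control region lies on the lower side. The list has no value per sample, so no error between samples can be given, and the read depth behind each peak is unknown. It does not separate the B6 and CAST copies, or germ cells from somatic cells of the testis. Fold enrichment at the summit and −log10 q are the authors' values and describe peaks within this list.

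No CTCF peak was called near the start of Rasgrf1 or in the zone taken to stand for its control region. The exact interval of the control region was not available, so the stretch 20 to 40 kb upstream of the annotated start was used. No summit lay in that stretch. The nearest summit upstream was 82.3 kb from the start and the nearest downstream, inside the gene, was 31.1 kb away. The peak-free stretch between them, from 89827192 to 89940646, was 113 kb long and took in the position about 30 kb upstream, the promoter and the beginning of the gene. Such stretches are common by length: 8.85% of the 50248 intervals between neighbouring autosomal summits were at least as long, and together they held 53.4% of the autosomal length between summits. Among 16456 other autosomal protein-coding genes whose strand was known, 49.7% also had no summit 20 to 40 kb upstream, so the empty zone does not set Rasgrf1 apart. The nearest upstream summit was farther away than in Rasgrf1 for 15.8% of the other genes, whose median distance was 15.01 kb. The nearest summit in either direction was farther away for 18.2% of them, whose median was 4.17 kb.

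**Figure D1:**
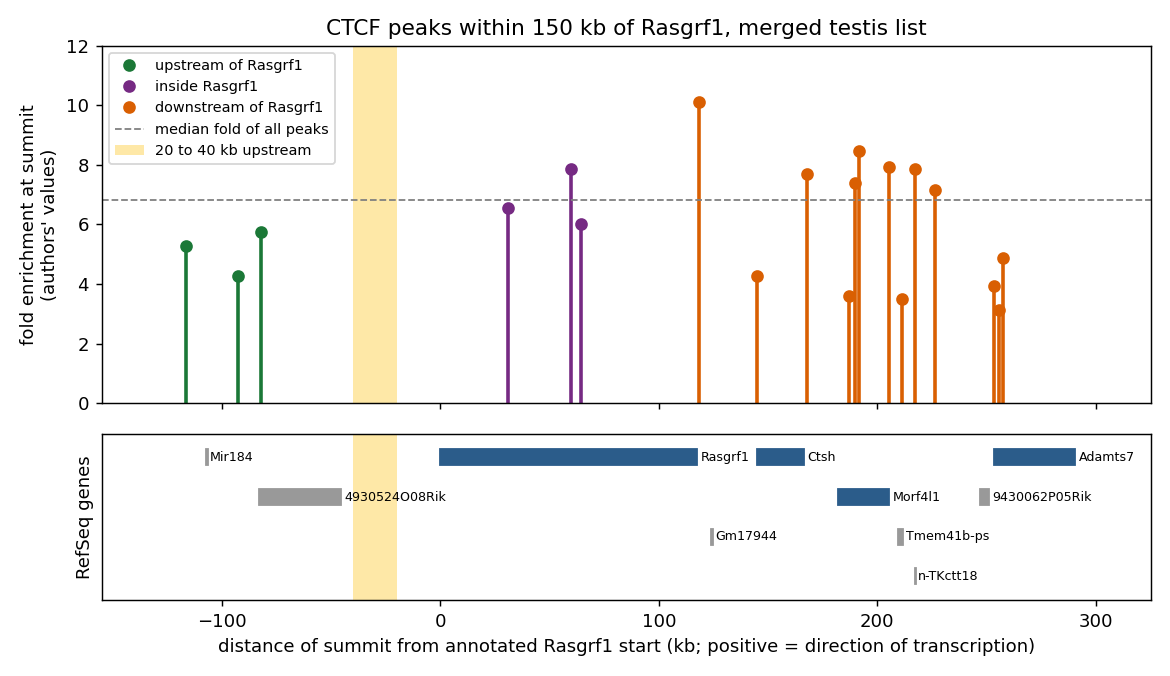
CTCF peaks around Rasgrf1, with the distance of each summit from the annotated start in kb on the x axis and the authors' fold enrichment on the y axis, and RefSeq genes below (blue, protein-coding; grey, other). The 20 to 40 kb upstream zone (yellow) held no summit, and the highest fold, 10.1, stood just past the end of the gene.

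The promoter sequences show which bases next to the starts were covered by a peak. The 250 bases before the start are printed 5′ to 3′ on the strand of the gene for the imprinted gene itself and for Morf4l1 and 4930524O08Rik, which had bases in a peak among the 4 locus genes with a promoter sequence, with capitals for bases inside a CTCF peak. They are from RefSeq (GRCm38.p6, the same coordinates as mm10) and span chr9:89909525-89909774 on the plus strand for Rasgrf1, chr9:90114821-90115070 on the minus strand for Morf4l1 and chr9:89826269-89826518 on the plus strand for 4930524O08Rik.
Rasgrf1: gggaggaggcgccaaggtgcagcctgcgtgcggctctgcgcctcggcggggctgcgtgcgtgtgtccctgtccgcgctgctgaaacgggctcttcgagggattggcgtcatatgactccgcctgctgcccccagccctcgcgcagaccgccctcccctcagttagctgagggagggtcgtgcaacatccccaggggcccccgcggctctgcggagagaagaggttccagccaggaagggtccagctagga
Morf4l1: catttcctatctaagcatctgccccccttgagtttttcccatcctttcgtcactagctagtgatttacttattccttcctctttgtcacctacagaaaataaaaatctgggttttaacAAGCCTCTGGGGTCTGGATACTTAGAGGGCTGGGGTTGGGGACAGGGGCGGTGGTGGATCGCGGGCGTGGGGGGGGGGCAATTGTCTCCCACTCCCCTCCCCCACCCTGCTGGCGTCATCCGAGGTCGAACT
4930524O08Rik: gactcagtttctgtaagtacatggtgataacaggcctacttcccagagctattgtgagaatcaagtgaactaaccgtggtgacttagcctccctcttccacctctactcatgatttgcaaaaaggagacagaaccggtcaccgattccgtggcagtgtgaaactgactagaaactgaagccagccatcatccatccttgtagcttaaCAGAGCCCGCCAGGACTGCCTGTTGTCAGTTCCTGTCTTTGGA
The start that the promoter table uses for Rasgrf1 lies 267 bp downstream of the annotated start from which distances are given here, so the bases printed for it lie inside the annotated gene. That start was 30871 bp from the nearest summit. The Rasgrf1 promoter had none of its 250 bases in a peak, Morf4l1 had 132 and 4930524O08Rik had 43. The Rasgrf1 promoter was the richest of the 3 in CG dinucleotides, with 21 in 250 bases, against 8 at Morf4l1 and 5 at 4930524O08Rik. With the 50 bases after the start added, Rasgrf1 had 26, more than 83.1% of RefSeq promoters. Morf4l1 had 13, more than 62.1% of promoters, and 4930524O08Rik had 6, more than 43.6%. DNA methylation at these sites was not measured. The core of the CTCF motif, spelled as CC, 3 bases of any kind, AG, 2 bases of any kind and GGC, was searched on both strands of 300 bases, from 250 before to 50 after the start. Matches were not found in any of the 3 promoters, nor in that of the lncRNA gene 9430062P05Rik, the fourth gene of the locus with a promoter sequence. Of 32851 RefSeq promoters of this length, 8.61% held a match. The share was 23.4% of the 4278 promoters that contained a CTCF summit and 6.40% of the 28573 that did not, so most promoters with a summit also lacked one.

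Upstream of Rasgrf1, 3 peaks were called within 150 kb. The farthest spanned 89792486 to 89794283, with its summit 116 kb from the start and 9.02 kb from Mir184, a microRNA gene. Its fold was 5.29 and its −log10 q 46.7. The next, of fold 4.26 and −log10 q 7.53, lay 92.8 kb from the start in no annotated gene. The third, which spanned 89826476 to 89827736, reached a fold of 5.76 with −log10 q at 53.2. Its summit was 673 bp downstream of the start of the lncRNA gene 4930524O08Rik. All 3 folds were below the median of all peaks, 6.82.

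The outer peaks of these 3 were broad for their fold. They were 1798 and 1261 bp wide, against a median of 529 bp over the whole list. Among peaks of like fold, within 5% of the value, the first was wider than 97.9% and had a higher −log10 q than 87.9%. The peak at 4930524O08Rik was wider than 89.5% and had a higher −log10 q than 93.6% of its like. By fold alone these peaks stood at percentiles 31.9 and 37.4 of the list, whereas by −log10 q they stood at 66.9 and 74.3.

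Inside Rasgrf1 lay 3 peaks, all away from its ends. The first summit was 31.1 kb into the gene, at 89940646, where the fold was 6.54 and the −log10 q 15.9. A pair followed at 59.7 and 64.5 kb, with summits at 89969240 and 89973983, 4.74 kb apart. Their folds were 7.85 and 6.02, and their −log10 q values were nearly equal at 26.1 and 25.9. Of the 3, the summit at 89969240 exceeded the median fold of the list and none reached its median −log10 q of 29.5. The first of them was low in −log10 q for its fold: 6.75% of peaks of like fold had a lower one. Among the 1943 other autosomal coding genes of 0.67 to 1.5 times the length of Rasgrf1, the median number of summits inside the gene was also 3, with fewer in 46.6% and more in 35.8%.

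The peak of highest fold lay just past the end of Rasgrf1. It spanned 90027512 to 90028404 and its summit, at 90027902, was 923 bp beyond the annotated end of the gene, in no annotated gene. Its fold of 10.1 exceeded 81.3% of all peaks, and its −log10 q of 58.1 exceeded 80.1%. Alone among the 19 (5.26%) it had a fold of at least 10, a level that 19.6% of all peaks reached. Of the coding genes of known strand, 9.13% had a summit 1 kb or less from the annotated end, where the gene model stops, and 35.4% had one that near to the start. Rasgrf1 was among the 4.86% of these genes with a summit at the end and none at the start.

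Further downstream, peaks were closely spaced through a stretch that holds several genes. The 150 kb past the end of Rasgrf1 held 13 peaks, including the one just described, and 7 annotated genes, whereas the 150 kb before its start held 3 peaks and 2 annotated genes. Ctsh, which encodes the lysosomal protease cathepsin H, had a summit of fold 4.28 inside the gene 162 bp from its lower end, and one of fold 7.70 that was 996 bp beyond its upper end. The peak beyond the upper end, from 90076663 to 90077715, had the highest −log10 q of the locus, 63.4. Morf4l1, which encodes a chromodomain protein of histone acetyltransferase complexes, held 4 summits. The one at its start, 54 bp inside the gene at 90114766, had a fold of 7.94, a −log10 q of 62.9 and a width of 1384 bp. The other 3 lay deeper in the gene, 2.71 and 1.84 kb apart, with folds of 3.58, 7.41 and 8.48, the last being the second highest of the locus.

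The remaining downstream peaks were mixed in strength. A peak of fold 7.88 covered the tRNA gene n-TKctt18, with its summit 213 bp from that gene, and another of fold 7.17 lay at 90135670 in no annotated gene. A weak peak of fold 3.49 lay in the pseudogene Tmem41b-ps. At the far edge, 3 peaks at the lower end of Adamts7, a gene for a secreted metalloprotease, had folds of 3.94, 3.13 and 4.87, all below the median of the list. The summit of fold 3.94 was 125 bp outside that end. Within 1 kb of at least 1 of their ends, all 4 coding genes that overlap the window had a summit, against 39.1% of coding genes of the autosomes and X. In all, 8 of the 19 summits (42.1%) lay within 1 kb of the end of some annotated gene, against 21.5% of the 51630 summits of the autosomes and X. Inside a gene lay 12 of the 19 (63.2%), against 59.6% of those summits. These shares were not tested.

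**Figure D2:**
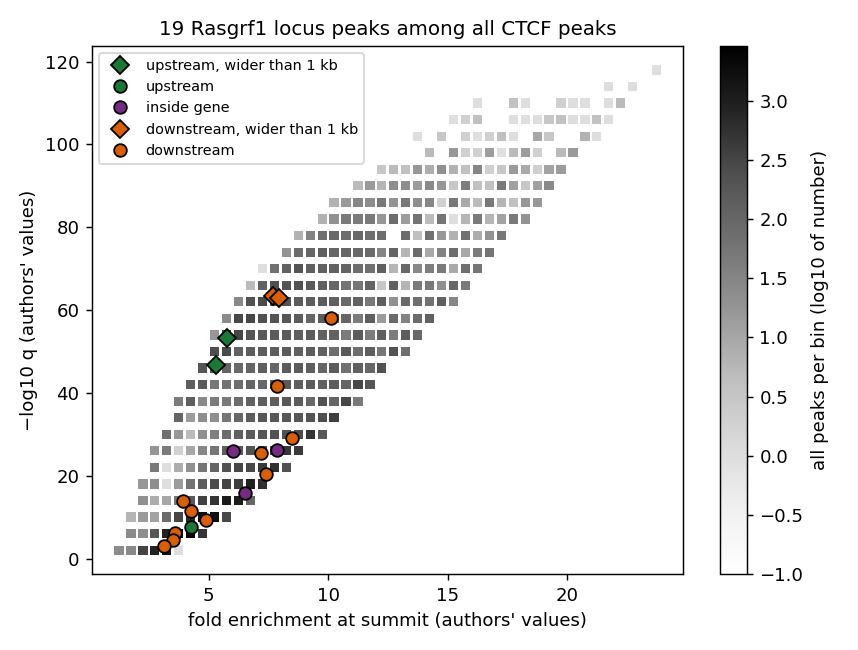
The 19 peaks of the Rasgrf1 locus (coloured by position, diamonds for widths over 1 kb) on the authors' fold enrichment (x axis) and −log10 q (y axis), over all peaks of the list in grey bins. The 4 wide peaks lie between −log10 q 46.7 and 63.4 at folds of 5.29 to 7.94, on the upper side of the peaks of like fold.

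Across the 19 peaks the fold ran from 3.13 to 10.1 with a median of 6.02, against 6.82 over the whole list, and 11 lay below that median. The −log10 q ran from 3.08 to 63.4 with a median of 25.6, against 29.5 over the whole list. Of the 19, 12 (63.2%) had a fold of 5 or more, against 71.9% of all peaks. The median width was 521 bp, close to 529 bp over the whole list, and the 4 peaks wider than 1 kb made up 21.1% of the locus, against 16.6% of the list. With so few peaks and no spread between samples, these differences were not tested. Among the 19 peaks, width and −log10 q had a Spearman's rho of 0.918, and over the whole list 0.843. This is a description across peaks of 1 list, which share its reads.

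Over all peaks of the list, the flanks differed by 10 summits. The downstream flank, with 13 summits, had more than 90.6% of the 16456 other coding genes of known strand, whose median was 5. The upstream flank, with 3, had fewer than 65.8% of them, again with a median of 5. An excess of at least 10 summits downstream over upstream was found in 1.48% of the other genes, and one of at least 10 on either side in 3.24%. The excess became smaller with stricter peaks, by an amount that depended on the measure. By fold, 6 of the 13 downstream summits lay below the median of the list, as did all 3 upstream. Among peaks of fold 5 or more the excess was 7 summits downstream against 2 upstream. This difference was matched or exceeded on either side in 15.2% of the other genes. Once peaks below the median −log10 q were dropped the excess was 4 downstream against 2 upstream, matched or exceeded in 48.8%. Windows of neighbouring genes overlap, so these shares describe the list and are not a test. Over the whole window of 417 kb, the density was 45.5 peaks per Mb, against 24.0 over chromosome 9 and 20.9 over the autosomes. The same windows of the 20559 other coding genes had a median of 35.9 per Mb, and 62.8% of them were below Rasgrf1. With flanks of 50 kb the density at Rasgrf1 was 23.0 per Mb, above 31.0% of the other genes, and once peaks below the median −log10 q were dropped it was above 41.1% of them. By part, the density was 20 per Mb upstream, 25.5 inside the gene and 86.7 downstream.

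**Figure D3:**
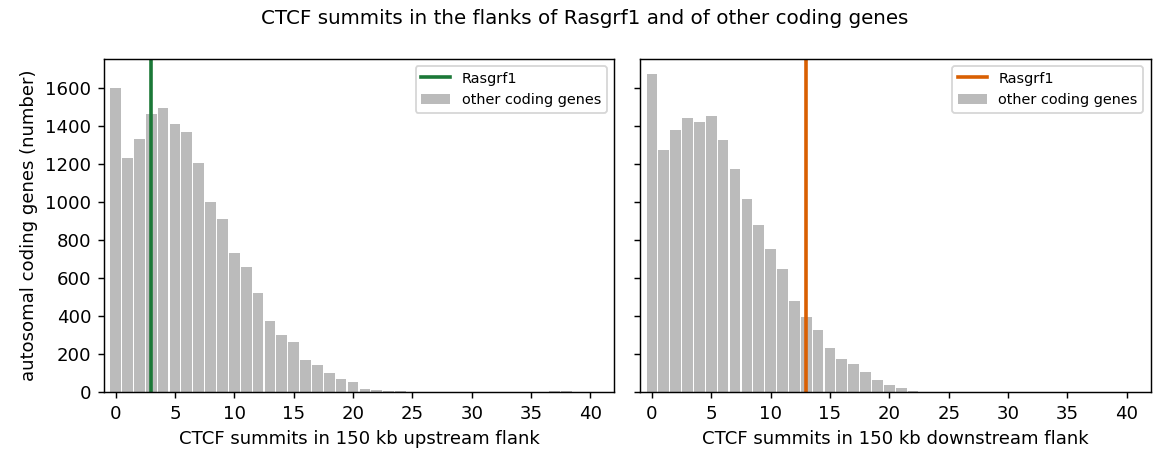
Number of CTCF summits in the 150 kb upstream (left) and downstream (right) flanks on the x axes and number of autosomal coding genes on the y axis, with Rasgrf1 marked by a line. Rasgrf1 stands at 3 summits upstream and 13 downstream, where other coding genes have a median of 5 on each side.

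A peak of higher fold than any member lay just outside the window. On the lower side, the first peak outside had its summit 52.4 kb beyond the limit, near Tmed3, with a fold of 7.87. On the upper side, the first outside lay 27.6 kb beyond the limit inside Tbc1d2b, with a fold of 6.81. The one after it, 29.7 kb beyond the limit at 90206662 and also inside Tbc1d2b, had a fold of 18.4 and exceeded 99.7% of all peaks. The outermost members inside the limits were those of fold 5.29 on the lower side and 4.87 on the upper side.

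H19 and Meg3, genes of noncoding RNAs, also have control regions that are methylated on the paternal copy, and the same window was taken around them. The window held 19 peaks at Rasgrf1, 23 at H19 (chromosome 7, 142575530 to 142578146) and 8 at Meg3 (chromosome 12, 109540996 to 109571729). Because the genes differ in length, the windows were 417, 303 and 331 kb long. The densities were 45.5, 76.0 and 24.2 peaks per Mb, in the same order. Within 40 kb upstream of the start, Rasgrf1 and Meg3 had 0 summits each and H19 had 3, taking H19 as transcribed towards lower coordinates. The nearest upstream summit was 82.3 kb from the start at Rasgrf1, 2.57 kb at H19 and 94.8 kb at Meg3. The longest peak-free stretch in the window was 113 kb at Rasgrf1, 48.7 kb at H19 and 96.8 kb at Meg3. Downstream of the start, the first summit was 31.1 kb into Rasgrf1 and 2.04 kb into Meg3. The highest fold in the window was 10.1 at Rasgrf1, 13.4 at H19 and 11.1 at Meg3. These summits lay just past the end of the gene at Rasgrf1, 3.75 kb upstream of the start at H19 and 147 kb upstream at Meg3. With 1 locus of each kind, no test was made.

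**Figure D4:**
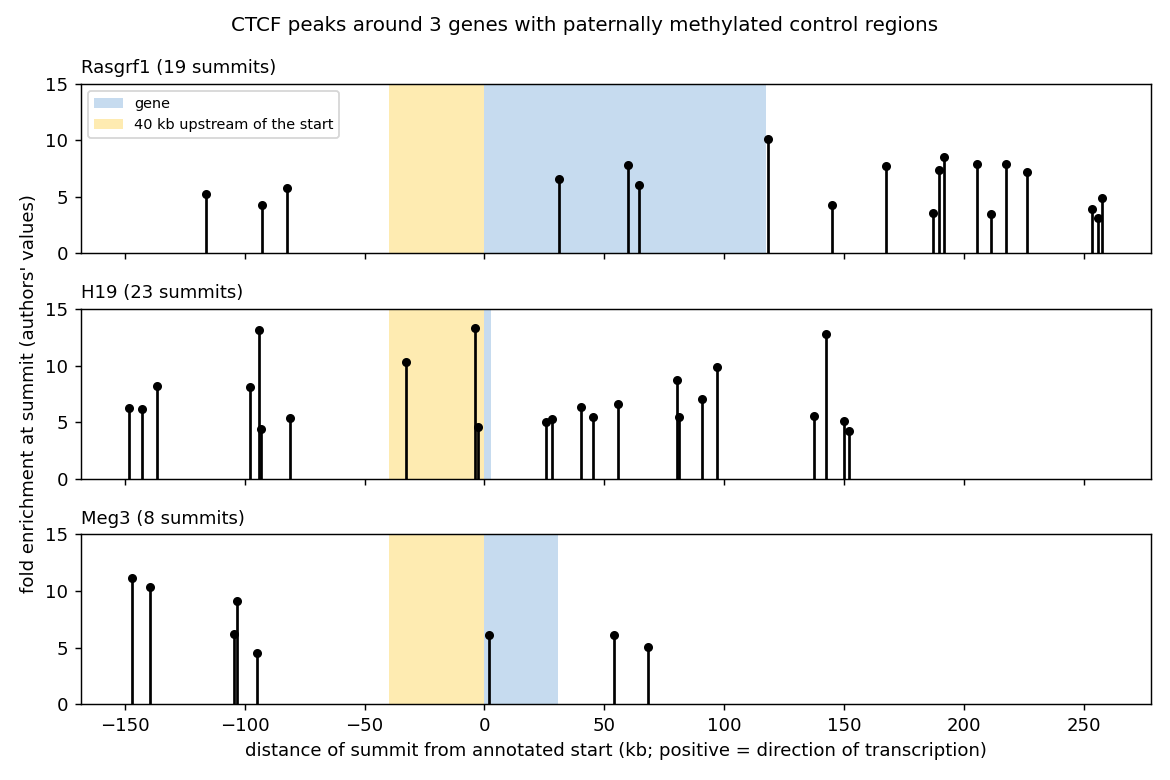
CTCF summits around Rasgrf1, H19 and Meg3, with the distance from the annotated start in kb along the direction of transcription on the x axis and the authors' fold enrichment on the y axis. The 40 kb before the start (yellow) hold 0 summits at Rasgrf1 and at Meg3, and 3 at H19.

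The genes most like Rasgrf1 in the number of summits were sought among the same 1943 coding genes of similar length. The measure was the sum of the absolute differences in the number of summits in the 2 flanks of 150 kb and in the gene, in the better of both orientations. Its median over these genes was 10. Zmym4 on chromosome 4 came closest, with a sum of 1, followed by Mga on chromosome 2 and Col6a4 on chromosome 9 with 2 each. Ak8 on chromosome 2 and Usp54 on chromosome 14 followed with 3 each. Zmym4 had 3 summits in its lower flank, 3 inside and 12 in its upper flank. Being transcribed towards lower coordinates, it has its crowded flank upstream of the start, the other way round from Rasgrf1. Col6a4, Ak8 and Usp54 also had the crowded flank upstream. Mga, transcribed towards higher coordinates, had 3 summits in its lower flank, 3 inside and 11 in its upper flank, the same way round as Rasgrf1.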

How the data were processed

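CTCF immunoprecipitation and input samples of whole testis were the source of 1 merged narrowPeak list. The submitters' processing notes name BWA 0.7.12, MACS2 2.2.7 and mm10 without saying what each was used for. The list's name says merged and its peak names say bio2 and merged, so whether 1 or both immunoprecipitated samples entered it is not settled. Each deposited peak carries 4 values of the authors: the fold enrichment at its summit (a ratio), the −log10 of p, the −log10 of q, and a score that was not used. The lowest deposited −log10 q was 1.31. Input values enter only through the authors' calls, and the depth of each sample is unknown.

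Peaks were assigned by summit (start plus offset, written 1-based) to RefSeq genes of GRCm38.p6, with Python 3.11.15, pandas 2.3.3, NumPy 2.4.6 and SciPy 1.17.1. Strand came from the promoter table and was known for 16457 of 20560 autosomal coding genes, and 108 coding genes (autosomes and X) placed below 3 Mb were left out. Chromosome length was counted from 3 Mb. Percentiles are shares of peaks or genes with a lower value. All results are descriptions of 1 list, without tests. Counting of summits in gene windows was tested on simulated data, and the planted number was returned for 200 of 200 genes. The named genes were those overlapping the window, the 5 genes most like Rasgrf1 in summit numbers, and H19 and Meg3. Tmed3 and Tbc1d2b, outside the window, were named after their values were seen. Members, lists and windows were chosen with earlier results of these data known. Alternatives were other flanks, stricter peaks, overlap in place of summits and other upstream zones.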

Additional observations from a re-analysis of the deposited data

How the results depend on the processing

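The number of 19 peaks became 5 with flanks of 50 kb, 29 with flanks of 250 kb, 12 among peaks of fold at least 5 and 6 when peaks below the median −log10 q were dropped. The density of 45.5 peaks per Mb became 23.0 with flanks of 50 kb, 28.7 among peaks of fold at least 5 and 14.4 at the higher −log10 q. The share of coding genes with a lower density, 62.8%, became 31.0%, 59.9% and 67.0% with flanks of 50, 100 and 250 kb, 56.6% among peaks of fold at least 5 and 41.1% at the higher −log10 q, so the locus stands below or above the middle of coding genes according to the setting. The highest fold of 10.1 became 18.4 with flanks of 250 kb, which take in the peak inside Tbc1d2b, and the peak of highest −log10 q had a fold of 7.70. The longest peak-free stretch, an alternative added after the data were seen, became 201 kb at the higher −log10 q, which removes the peaks inside Rasgrf1, and kept its length among peaks of fold at least 5. The count of 0 peaks 20 to 40 kb upstream stayed 0 in zones of 25 to 35 kb and 10 to 50 kb, among peaks of fold at least 5 and by any overlap of 1 bp. The downstream excess of 10 summits over upstream, also examined afterwards, became 5 among peaks of fold 5 or more and 2 at the higher −log10 q. No paired analysis was possible because the list gives no values of single samples, so replicates could not be left out either. With the depth unknown, a missing peak means only that none passed the authors' threshold.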
